A study of Mus musculus with 19 samples.

Results

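Radial glia and retinal progenitors are recognised by a set of proteins that are not transcription factors, and the transcripts of 10 such markers were measured: Slc1a3, Glul, Fabp7, Rlbp1, Vim, Nes, Clu, Apoe, Sparc and Crym. They were chosen by name, as the rows of the count files whose Ensembl identifiers map to these symbols in the GRCm38 annotation, and are 10 of the 47069 genes listed. All 10 passed the filter on low counts, which left 15941 genes to test. The study compared mouse retinal ganglion cells (RGCs) whose axons stay on the same side of the brain (ipsilateral, iRGCs) with RGCs whose axons cross the midline (contralateral, cRGCs). Embryos were C57/DBA F1 mice at E16.5, of both sexes pooled, with the genotype given as WT, and in both populations Cre recombinase removed a stop cassette in front of Sun1-GFP, a nuclear envelope protein fused to GFP, in the Rosa26 locus. The iRGCs (Sert in the labels) were GFP-positive cells sorted from retinas with Slc6a4-Cre, a transgene driven by the serotonin transporter gene, and the cRGCs (Brn3b in the labels) were GFP-positive cells sorted from retinas with Pou4f2-Cre, in which Cre was targeted into the Brn3b locus, after the ventrotemporal region had been cut away. Cre marks a cell and all its descendants, and the Cre driver, the retinal region and the population differ together, so they cannot be told apart. There were 3 RNA-seq libraries per population, with 28193178 to 33638083 reads counted on genes. Levels are CPM, read counts scaled to a common library total after TMM correction, given for replicates 1, 2 and 3 and as mean ± SD (n = 3). Changes are log2 fold changes, with iRGCs in the numerator, and their standard errors (SE). They come from edgeR's two-sided quasi-likelihood test, adjusted by Benjamini-Hochberg across the genes tested, and a gene was called at an adjusted p under 0.1. The p-values judge each change against the spread between the 3 libraries of each population. Nothing in the labels says whether the replicates came from separate litters, so what that spread covers is not known.

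Both populations contained transcripts of RGC markers, but at different levels. The summed level of a list of 12 RGC markers was 1773, 2413 and 3510 CPM in iRGC replicates 1, 2 and 3 and 9669, 8678 and 9876 CPM in cRGC replicates 1, 2 and 3. Pou4f2 itself had 102 ± 29.6 in iRGCs and 227 ± 57.4 CPM in cRGCs. Its locus is the one into which Cre was targeted in the cRGC line, and the part of this in its level was not tested. Slc6a4, the gene that drives Cre in iRGCs, had 2.06, 33.4 and 116 CPM across the iRGC replicates and 48.1, 35.4 and 30.5 CPM in the cRGC replicates (log2 fold change 0.41, SE 0.93, adjusted p = 0.768). The iRGC libraries were therefore not marked off by the Slc6a4 transcript, and iRGC replicate 1 had the lowest level of all 6 libraries. This transcript thus does not bear out the label of iRGC replicate 1, which enters every iRGC mean. The paper gives Lhx2 as high in iRGCs and Pou4f1 as specific to cRGCs, and both ran the way of the label in that library. Lhx2 had 241 CPM in iRGC replicate 1 and 27.3, 52.7 and 31.7 CPM in the cRGC replicates. Pou4f1 had 107 CPM in iRGC replicate 1 and 861, 672 and 431 CPM in the cRGC replicates. The cause of the low Slc6a4 level was not tested. iRGC replicate 2 stood apart in markers of blood vessels and red blood cells and had the highest sums of fibroblast, lens and pigment epithelium markers, which are given with the other cell types. The counts of members are given with all libraries and without iRGC replicate 1 or 2.

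Radial glia are elongated progenitors that span the wall of the developing nervous system, divide next to the ventricle and guide migrating neurons. In the retina the multipotent progenitors have this radial form, and their last-born products, the Müller glia, keep many of the same proteins: uptake and conversion of glutamate, binding of fatty acids and retinoids, intermediate filaments made of vimentin and nestin, and secreted carriers of lipid. RGCs leave the cell cycle early and are known for neurofilaments in place of these proteins.

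RefSeq promoter windows of GRCm38.p6, 300 bases running from 250 before to 50 after the start of transcription, were on hand for 8 of the 10 genes. Each window was searched on both strands for the TATA box (TATAAA), a homeodomain core (TAATTA), the core of the Otx and Crx sites (TAATCC), a Sox core (AACAAT) and an Rbpj site (GTGGGAA). The homeodomain and Otx letters both hold TAAT and can overlap, which no match in these windows did. The shares of all 32851 windows with a match were 13.6%, 5.29%, 7.06%, 10.7% and 6.38%, in that order. A match describes the letters and not a bound site. Printed are the windows of Vim, the member with the most counts that was not called, and of Slc1a3, one of the members with the largest change and the one whose window held 2 of the motifs. The Vim window lies at chr2:13574061-13574360 on the plus strand, and the Slc1a3 window at chr15:8710758-8711057 on the minus strand. Both are written 5′ to 3′ along the gene, with motif matches in capitals.
Vim: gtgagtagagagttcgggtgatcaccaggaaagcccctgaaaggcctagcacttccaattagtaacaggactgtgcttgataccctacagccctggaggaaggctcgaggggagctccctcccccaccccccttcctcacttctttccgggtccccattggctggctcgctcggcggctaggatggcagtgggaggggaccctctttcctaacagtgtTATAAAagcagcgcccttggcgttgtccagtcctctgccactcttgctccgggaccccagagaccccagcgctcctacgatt
Slc1a3: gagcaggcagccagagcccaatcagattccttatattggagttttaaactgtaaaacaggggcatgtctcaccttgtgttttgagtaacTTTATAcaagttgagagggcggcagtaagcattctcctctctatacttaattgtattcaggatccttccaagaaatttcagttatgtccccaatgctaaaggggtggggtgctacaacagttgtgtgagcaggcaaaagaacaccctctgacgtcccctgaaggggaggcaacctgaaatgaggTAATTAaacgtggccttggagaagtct
The Vim window held a TATA box from -32 to -27, counted from the start site, which is where the general transcription machinery is known to bind such a box. In Slc1a3, a TATA box match on the other strand lay from -161 to -156 and a homeodomain core from 23 to 28. Rlbp1 had a TATA box match from -78 to -73 and Apoe an Otx core from -80 to -75. The windows of Glul, Fabp7, Nes and Sparc held none of these letters. The Nes window, with 18 CG dinucleotides, and the Glul window, with 17, were richer in CG than the median window, which had 7, whereas Slc1a3 had 3.

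Of the 10 markers, 8 had higher levels in iRGCs, none was called lower and 2, Vim and Clu, were not called. Over all tested genes, 23.3% were called higher in iRGCs and 23.1% lower. In 7 members the change was also above 1 on the log2 scale, which 12.1% of tested genes passed in the direction of iRGCs. In the same 8 members every iRGC library lay above every cRGC library, a separation seen in this direction in 27.1% of tested genes. The median log2 fold change of the members was 2.29, against -0.0031 over all tested genes. The 10 members together took 0.190%, 0.196% and 0.176% of the counts in iRGC replicates 1, 2 and 3 and 0.0633%, 0.0772% and 0.0901% in cRGC replicates 1, 2 and 3. In these bulk libraries, fewer cells with a transcript and less of it in each cell cannot be told apart. Without iRGC replicate 1 or without iRGC replicate 2, 8 members were still called higher.

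**Figure D1:**
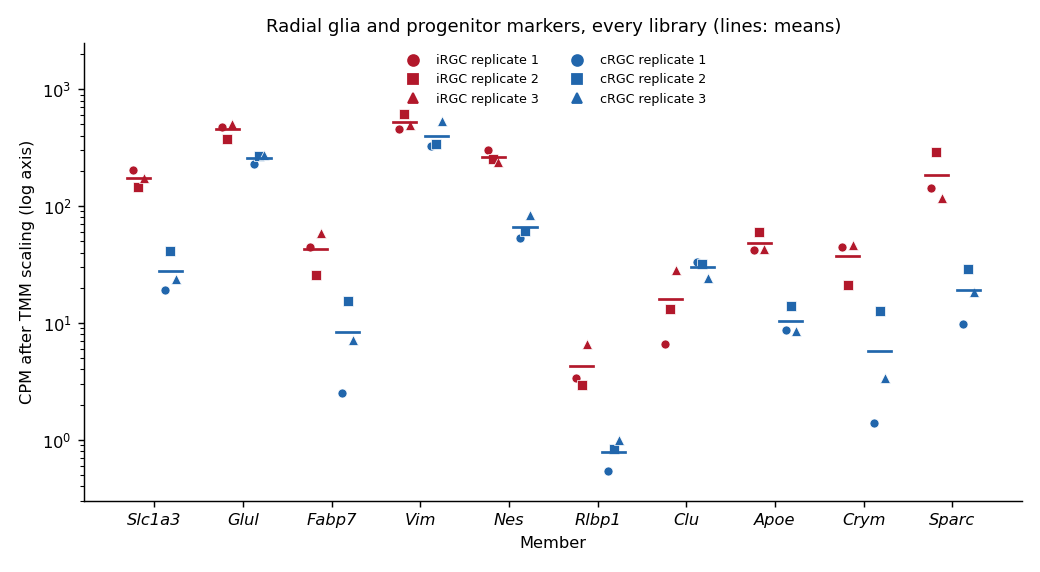
Level of each of the 10 markers in every library, in CPM after TMM scaling on a log axis (red, iRGCs; blue, cRGCs; symbols, replicates; lines, means of 3 libraries). In 8 genes all red points lie above all blue ones, whereas Vim and Clu overlap, and the lowest cRGC point is replicate 1 in 8 of the 10 genes.

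Glutamate handling was represented by Slc1a3 and Glul, which both had higher levels in iRGCs but changed to different extents. Slc1a3 (chr15:8634124-8710764, minus strand) encodes GLAST, the glutamate transporter of radial and Müller glia. It had 202, 147 and 175 CPM across the iRGC replicates and 19.2, 41.0 and 23.7 CPM in the cRGC replicates. The lowest iRGC library was thus well above the highest cRGC library, and the change was 6.24-fold (log2 fold change 2.64, SE 0.27, adjusted p = 0.000238). Glul (chr1:153899944-153909723, plus strand) encodes glutamine synthetase, which turns the glutamate taken up into glutamine. Its levels were 477, 378 and 502 CPM in iRGCs and 230, 269 and 271 CPM in cRGCs. Glul thus had a high level in all 6 libraries and rose by a smaller amount than the other called members, 1.76-fold (log2 fold change 0.82, SE 0.13, adjusted p = 0.00142). Of its exonic bases, 3.49% are shared with 2 other genes, mostly or in larger part with Teddm2 on the opposite strand. No other member shared any exonic base with another gene.

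The rest of the glutamate-glutamine cycle was compared through a list. Of 12 listed genes of uptake and conversion, 11 were tested, of which 3 were called higher in iRGCs, 5 lower and 3 neither, with a median log2 fold change of -0.10. The shares of all tested genes were 23.3% higher, near that of this list, and 23.1% lower. These shares are also the background of the other lists. Higher were Slc1a2, the other main glial glutamate transporter (log2 fold change 0.75, SE 0.17), Slc1a5, a carrier of neutral amino acids (1.17, SE 0.19), and Slc38a3, a glutamine carrier of glia, with 31.8 ± 2.74 CPM in iRGCs and 8.51 ± 2.73 CPM in cRGCs (1.90, SE 0.24). Among those lower were Slc38a1, a glutamine carrier of neurons (log2 fold change -0.46, SE 0.094), and Got2, a mitochondrial aminotransferase, whose change was small (-0.29, SE 0.11, adjusted p = 0.0701). Got2 lost its call in 8 of 15 alternatives. It was not called with library totals alone (-0.080, adjusted p = 0.593), without iRGC replicate 2 or without any one of the cRGC libraries (adjusted p up to 0.244). The others were no filter (adjusted p = 0.138), DESeq2 (0.105) and the replicate number as a block (0.116). Slc38a2, another glutamine carrier, had 436 ± 55.0 in iRGCs and 424 ± 40.6 CPM in cRGCs, which overlapped.

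The carriers of fatty acids and retinoids, Fabp7 and Rlbp1, were both higher in iRGCs. Fabp7 (chr10:57784881-57788450, plus strand) encodes the brain lipid-binding protein of radial glia. It had 44.3, 25.9 and 58.7 CPM across the iRGC replicates and 2.50, 15.5 and 7.10 CPM in the cRGC replicates. cRGC replicate 2 came nearest to the iRGCs, and the 5.12-fold change (log2 fold change 2.36, SE 0.57, adjusted p = 0.00997) grew to a log2 value of 3.16 without that library. Rlbp1 (chr7:79374870-79387048, minus strand) encodes CRALBP, which binds retinaldehyde in Müller glia and the pigment epithelium. It had the lowest level of the 10 genes, 3.34, 2.97 and 6.59 CPM in iRGCs and 0.538, 0.828 and 1.00 CPM in cRGCs. These rested on 104, 96 and 209 counts in the iRGC libraries and on 14, 24 and 31 counts in the cRGC libraries. The change was 5.42-fold (log2 fold change 2.44, SE 0.60, adjusted p = 0.0113).

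Among 13 genes of fatty acid binding and activation, of which 11 were tested, 2 were called higher in iRGCs and 7 lower, with a median log2 fold change of -0.38. Higher were Acsl3, an acyl-CoA synthetase (log2 fold change 0.54, SE 0.12), and Dbi, the acyl-CoA-binding protein (0.91, SE 0.17). Lower were the desaturases Fads1 (log2 fold change -0.38, SE 0.10) and Fads2 (-0.34, SE 0.13, adjusted p = 0.0681) and the elongase Elovl6 (-0.66, SE 0.092). Fads2 was not called without iRGC replicate 1 or 2 or without cRGC replicate 2 or 3 (adjusted p up to 0.222). With library totals alone in place of TMM, neither Fads1 (-0.17, adjusted p = 0.163) nor Fads2 (-0.14, adjusted p = 0.398) was called, and 4 genes of this list were called higher in place of 2. Fabp5, a binding protein of the same family as Fabp7, was singled out after its values were seen. It had 56.9 ± 9.74 in iRGCs and 118 ± 3.97 CPM in cRGCs, the opposite direction to Fabp7 (log2 fold change -1.05, SE 0.14).

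Of 15 genes of retinoid handling, 13 were tested, 5 were called higher and 2 lower, with a median log2 fold change of 0.64. By mean CPM, not scaled to length, the highest in iRGCs were Aldh1a1 and Aldh1a3, which make retinoic acid at the dorsal and ventral poles of the retina. Per kilobase of exon, Crabp2 (67.4 ± 13.3) and Crabp1 (54.5 ± 6.68) had higher means there than Aldh1a1 (52.8 ± 47.8) and Aldh1a3 (42.4 ± 13.6). Aldh1a1 had 147, 532 and 103 CPM across the iRGC replicates and 10.0, 20.3 and 30.5 CPM in the cRGC replicates. Replicate 2 was by far the highest, and the log2 fold change of 3.68 (SE 0.65) became 2.62 without it. Aldh1a3 had 196 ± 62.6 and 28.3 ± 14.1 CPM (log2 fold change 2.79, SE 0.35), and Rbp3, a retinoid carrier secreted by photoreceptors, had 119 ± 56.9 and 20.7 ± 10.8 CPM (2.53, SE 0.43). Among those lower was the cellular retinoic acid carrier Crabp1 (log2 fold change -1.38, SE 0.37), at -0.71 without cRGC replicate 3.

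Nes and Vim, which encode partner subunits of the same filaments, differed in their change. Nes (chr3:87971078-87980451, plus strand) encodes nestin, the large filament protein of neural progenitors, and had 301, 255 and 236 in iRGCs and 52.9, 60.6 and 83.8 CPM in cRGCs. The groups were far apart, and the change was 4.01-fold (log2 fold change 2.00, SE 0.18, adjusted p = 0.000205). Vim (chr2:13573927-13582826, plus strand) encodes vimentin, the filament subunit with which nestin assembles. It had 455, 612 and 494 CPM across the iRGC replicates and 330, 337 and 537 CPM in the cRGC replicates. cRGC replicate 3 lay above 2 of the 3 iRGC libraries, and the change was 0.38 on the log2 scale (SE 0.20, adjusted p = 0.177). Without that library it was 0.65 and was called (adjusted p = 0.0146), and over all alternatives the adjusted p ran from 0.0146 to 0.451. Within each library, Vim had 1.51, 2.41 and 2.09 counts per count of Nes in iRGCs and 6.22, 5.56 and 6.41 in cRGCs.

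Neuronal filaments went the other way. Of 13 genes of intermediate filaments and their linkers, 11 were tested, of which 7 were called lower in iRGCs and 4 higher, with a median log2 fold change of -1.45. Krt8 and Krt18, both keratin genes called higher, passed the filter on low counts only with the iRGC libraries in which they were high, so their calls are in part set by it. Ina, which encodes the neuronal filament protein α-internexin, had 567, 798 and 1288 CPM across the iRGC replicates and 3233, 2911 and 3627 CPM in the cRGC replicates (log2 fold change -1.88, SE 0.26). The neurofilament genes Nefm (log2 fold change -1.82, SE 0.30) and Nefl (-1.99, SE 0.33) were lower too, and they share exonic bases with each other in the annotation, so their split is uncertain. Higher were the nuclear lamins Lmnb2 (log2 fold change 0.40, SE 0.13, adjusted p = 0.0362) and Lmna (1.27, SE 0.42, adjusted p = 0.0377) and the keratin gene Krt18 (3.57, SE 1.19, adjusted p = 0.0401). Krt18 had 21.5, 2.57 and 7.50 CPM across the iRGC replicates and lost its call without replicate 1 (log2 fold change 2.51, adjusted p = 0.159) or cRGC replicate 2 (adjusted p = 0.113), and its log2 fold change was 5.21 without cRGC replicate 3. It also lost the call with limma voom (4.55, adjusted p = 0.155) and with the replicate number as a block (adjusted p = 0.107). Lmna lost its call with that block (adjusted p = 0.111) and without iRGC replicate 3 (0.141) or cRGC replicate 1 or 3. Lmnb2 lost its call without iRGC replicate 2 (adjusted p = 0.131) or cRGC replicate 1 or 3. Gfap, the astrocyte filament gene, had at most 0.189 CPM in any library and was not tested.

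The secreted proteins divided. Apoe and Sparc were higher in iRGCs, and Clu was the only member with a negative fold change. Apoe (chr7:19696109-19699188, minus strand) encodes apolipoprotein E, the lipid carrier that glia secrete, and had 41.7, 59.6 and 43.2 in iRGCs and 8.65, 13.8 and 8.49 CPM in cRGCs. The change was 4.67-fold (log2 fold change 2.22, SE 0.24, adjusted p = 0.000269). Sparc (chr11:55394500-55423183, minus strand) encodes osteonectin, a matricellular protein of radial glia that blood vessels also make. It had 143, 292 and 118 CPM across the iRGC replicates and 9.80, 29.0 and 18.5 CPM in the cRGC replicates. The change of 9.65-fold was the largest of the 10 (log2 fold change 3.27, SE 0.45, adjusted p = 0.000623). Apoe, Sparc and Vim were the 3 members whose highest iRGC level was in replicate 2, and without it the log2 fold change was 2.04 for Apoe, 2.77 for Sparc and 0.24 for Vim.

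Clu (chr14:65968483-65981547, plus strand) encodes clusterin, a secreted chaperone and apolipoprotein of mature Müller glia. It had 6.56, 13.1 and 28.3 CPM across the iRGC replicates and 33.4, 32.2 and 24.1 CPM in the cRGC replicates. Only iRGC replicate 3 reached into the range of the cRGCs, and the change was -0.90 on the log2 scale (SE 0.44, adjusted p = 0.144). With all libraries, Clu was called lower with no filter (adjusted p = 0.0715), DESeq2 (0.0651) and limma voom (0.0392). Without iRGC replicate 3 the edgeR change was -1.61 and was called lower (adjusted p = 0.00477). The same library had the highest summed level of RGC markers among the iRGCs, 3510 CPM against 1773 and 2413 CPM, and the part of this difference in the value of Clu was not tested. Clu had 0.157, 0.221 and 0.656 counts per count of Apoe in the iRGC libraries and 3.86, 2.33 and 2.84 in the cRGC libraries.

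**Figure D2:**
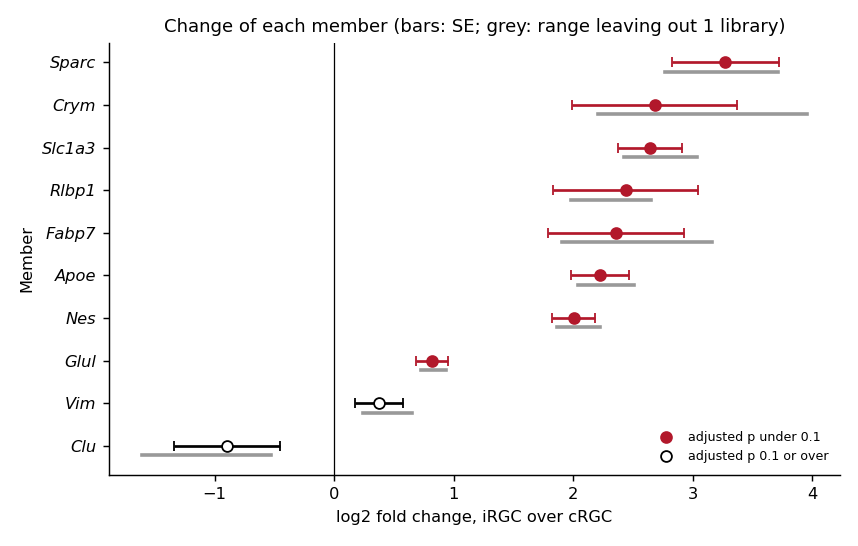
Log2 fold change of each member, iRGC over cRGC, with its SE (points and bars; filled red, adjusted p under 0.1 by edgeR) and the range obtained by leaving out each library in turn (grey lines). Sparc has the largest change at 3.27, Glul the smallest called change at 0.82, and the intervals of Vim and Clu lie nearest to 0.

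Among 16 genes of apolipoproteins, lipid efflux and lipoprotein receptors, 12 were tested, 5 were called higher and 3 lower, with a median log2 fold change of 0.30. Higher were Abcg1, a cholesterol exporter (log2 fold change 0.47, SE 0.13), Lrp4, a receptor of the LDL receptor family (1.94, SE 0.26), and Lrp2 or megalin, which takes up lipoproteins and hedgehog protein. Lrp2 had 19.7, 56.8 and 16.0 CPM across the iRGC replicates and 4.38 ± 0.482 CPM in cRGCs (log2 fold change 2.82, SE 0.47), and the value without iRGC replicate 2 was 2.03. Lower were Lrp1, a receptor for apolipoprotein E (log2 fold change -0.85, SE 0.12), Lrp8, the reelin receptor ApoER2 (-0.48, SE 0.12), and the lipid transporter Abca7 (-1.44, SE 0.20).

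Sparc belongs to the matricellular proteins. Of 14 listed genes, 13 were tested, 4 were called higher and 4 lower, near the 23.3% and 23.1% of all tested genes, with a median log2 fold change of -0.82. Ccn1, an integrin ligand, had 255 ± 53.0 in iRGCs and 26.9 ± 13.4 CPM in cRGCs (log2 fold change 3.25, SE 0.33). Fstl1, which carries a domain of the Sparc family (log2 fold change 1.45, SE 0.15), and Spon1 or F-spondin (1.85, SE 0.31) were higher as well. The testican genes Spock2 (log2 fold change -1.61, SE 0.16), Spock1 (-1.62, SE 0.18) and Spock3 (-1.43, SE 0.36), proteoglycans with the same calcium-binding domain as Sparc, were lower in iRGCs. Spock1 had 191 ± 49.9 and 586 ± 50.8 CPM in the respective populations.

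Crym (chr7:120186380-120202111, minus strand) encodes μ-crystallin, which binds thyroid hormone in the cytoplasm. It had 44.2, 21.05 and 46.4 CPM across the iRGC replicates and 1.38, 12.6 and 3.39 CPM in the cRGC replicates. The groups did not overlap, but cRGC replicate 2 had 365 counts against 36 and 105 in the others. The change was 6.41-fold (log2 fold change 2.68, SE 0.69, adjusted p = 0.0133) and became 3.96 on the log2 scale without cRGC replicate 2. Among 10 genes of thyroid hormone handling, 8 were tested, 3 were called higher and 2 lower, with a median log2 fold change of 0.12. Higher were the receptor gene Thrb (103 ± 19.8 and 28.1 ± 10.3 CPM, log2 fold change 1.87, SE 0.28), its partner Rxra (1.71, SE 0.22) and Dio3, the enzyme that inactivates the hormone (2.93, SE 0.44). Lower were the other receptor gene Thra (249 ± 87.6 and 713 ± 115 CPM, log2 fold change -1.52, SE 0.23) and the partner Rxrg (-1.08, SE 0.22).

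Levels of different genes were compared as CPM per kilobase of exon. In iRGCs, Glul (136 ± 19.8) and Vim (110 ± 17.3) came first and did not separate, since Glul was above Vim in 2 of 3 libraries. Both lay above Sparc (48.7 ± 24.9), which was followed by Nes (41.1 ± 5.18), Fabp7 (34.4 ± 13.2), Apoe (22.5 ± 4.63) and Slc1a3 (20.5 ± 3.27), and no neighbours in this stretch were separated in all libraries. Below Slc1a3 in every library was Crym (11.0 ± 4.14), followed by Clu (4.66 ± 3.25) and Rlbp1 (1.46 ± 0.674), whose libraries overlapped with those of their neighbours. In cRGCs, Vim (84.5 ± 24.8) and Glul (77.3 ± 6.999) again came first and did not separate, and every other member lay far below. Nes (10.3 ± 2.51), Clu (8.70 ± 1.46), Fabp7 (6.70 ± 5.29), Sparc (5.04 ± 2.54), Apoe (4.82 ± 1.41), Slc1a3 (3.27 ± 1.35) and Crym (1.71 ± 1.76) formed a run of neighbours with overlapping libraries, and Rlbp1 (0.267 ± 0.0791) was last. By the means, Clu moved from place 9 in iRGCs to place 4 in cRGCs, and Sparc from place 3 to place 6. Sparc lay above Nes, the next gene, in only 1 of 3 iRGC libraries. With the longest transcript in place of all exonic bases, 6 members changed place in iRGCs and 2 in cRGCs.

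**Figure D3:**
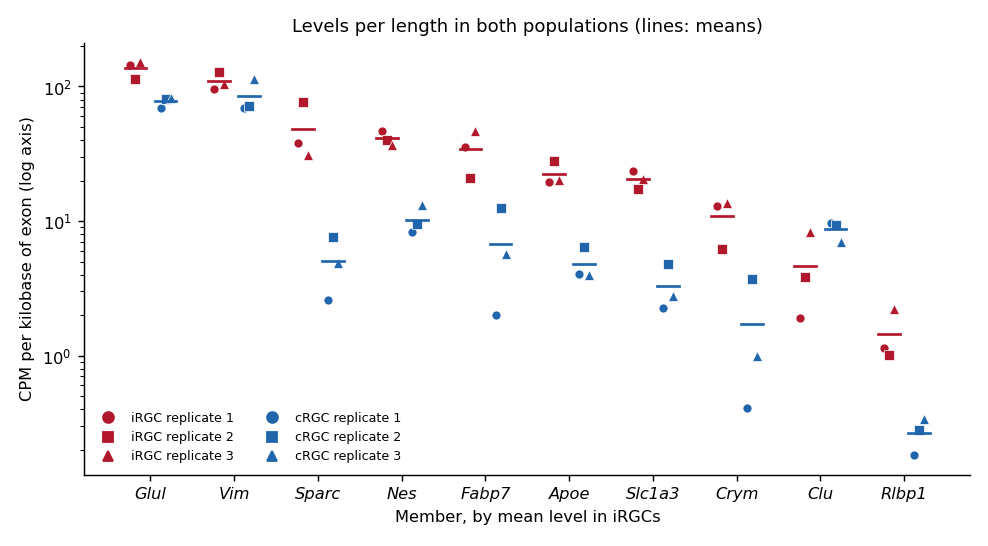
Level of each member per kilobase of exon in every library, on a log axis, ordered by the mean in iRGCs (red, iRGCs; blue, cRGCs; lines, means of 3 libraries). Glul and Vim lead in both populations, and Clu is the only gene whose blue mean lies above its red mean.

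Ratios of members within each library do not depend on how library sizes are scaled, and 4 pairs were compared by exact two-sided permutation tests over the libraries, for which the smallest p that 3 against 3 allow is 0.1. The log2 ratio of Glul to Rlbp1 was 6.80 ± 0.482 in iRGCs and 8.39 ± 0.331 in cRGCs, that of Vim to Nes 0.98 ± 0.343 and 2.60 ± 0.109, and that of Clu to Apoe -1.82 ± 1.08 and 1.56 ± 0.366. In these 3 pairs the groups did not overlap (exact permutation p = 0.1, 0.133 after adjustment over the 4 pairs). The log2 ratio of Slc1a3 to Fabp7, the classical pair of radial glia markers, was 2.09 ± 0.470 in iRGCs and 2.03 ± 0.812 in cRGCs, a difference of 0.062 that was smaller than the spread between replicates (exact permutation p = 0.9, adjusted p = 0.9).

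Among cRGCs, 8 of the 10 members had their lowest level in replicate 1, and 5 had their highest in replicate 2, namely Slc1a3, Fabp7, Apoe, Crym and Sparc. Another 4 members had their highest in replicate 3 and 1 in replicate 1. Crym, Fabp7 and Sparc had the widest spread among cRGCs, with coefficients of variation of 103%, 78.9% and 50.3%, and Glul the narrowest with 9.05%. Among iRGCs, the highest library was replicate 3 for 5 members, replicate 2 for 3 and replicate 1 for 2. The coefficient of variation ran from 12.6% for Nes to 69.8% for Clu.

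Other genes known from radial glia, Müller glia and progenitors were compared through lists drawn up with earlier results of these data in view. Of 16 other Müller glia genes, 14 were tested, 11 were called higher in iRGCs and 1 lower, with a median log2 fold change of 1.77. Dkk3, a secreted protein of Müller glia, had 1305 ± 43.6 in iRGCs and 342 ± 70.5 CPM in cRGCs (log2 fold change 1.93, SE 0.15). The peroxiredoxin gene Prdx6 (log2 fold change 0.57, SE 0.12) and Id1, an inhibitor of differentiation factors (2.77, SE 0.41), were also higher, whereas Gpr37, a receptor of glia and neurons, was lower (-1.12, SE 0.17). Aqp4, the water channel of mature glia, had under 1 CPM in every library and was not tested. Of 16 other radial glia genes, 15 were tested, 11 were called higher and none lower, with a median log2 fold change of 2.13. Of those called higher, Cspg5 (log2 fold change 0.70, SE 0.21), Ptprz1 (1.25, SE 0.15) and Prom1 (1.81, SE 0.18) had the highest mean CPM, not scaled to length. They encode a proteoglycan, a phosphatase receptor and prominin. Per kilobase of exon, Mfge8 and Ednrb had higher means in iRGCs than Ptprz1. Cspg5 was not called without cRGC replicate 1 (adjusted p = 0.103). Pea15a, the most abundant gene of this list, had 474 ± 56.5 and 523 ± 35.5 CPM and was not called (adjusted p = 0.387).

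Transcription factors and signals of retinal progenitors were higher in 12 of 14 genes and lower in 1, with a median log2 fold change of 2.43. The cyclin gene Ccnd1 had 3362, 2649 and 2520 CPM across the iRGC replicates and 277, 779 and 471 CPM in the cRGC replicates (log2 fold change 2.48, SE 0.33). Fgf15 (log2 fold change 2.73, SE 0.35) and Notch1 (2.64, SE 0.27) were higher too, and Six3 was lower (-0.37, SE 0.10), although not with library totals alone (-0.16, adjusted p = 0.242). Both Ccnd1 and Fgf15 share exonic bases with a neighbouring gene, and whether the counting used strand is not given in the sources used here. All 12 cell cycle genes were higher, with a median log2 fold change of 2.44, among them Top2a (2.57, SE 0.33), Mki67 (2.58, SE 0.32) and Mcm6 (1.89, SE 0.15). Their summed level was 4098, 3512 and 3419 CPM in iRGCs and 454, 1017 and 667 CPM in cRGCs. Among cRGC libraries, 12 of these 12 genes had their highest level in replicate 2 and 11 had their lowest in replicate 1. The 10 members were more divided, with 5 highest in replicate 2, 4 in replicate 3 and 1 in replicate 1. The part of dividing progenitors in the levels of the members was not tested.

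**Figure D4:**
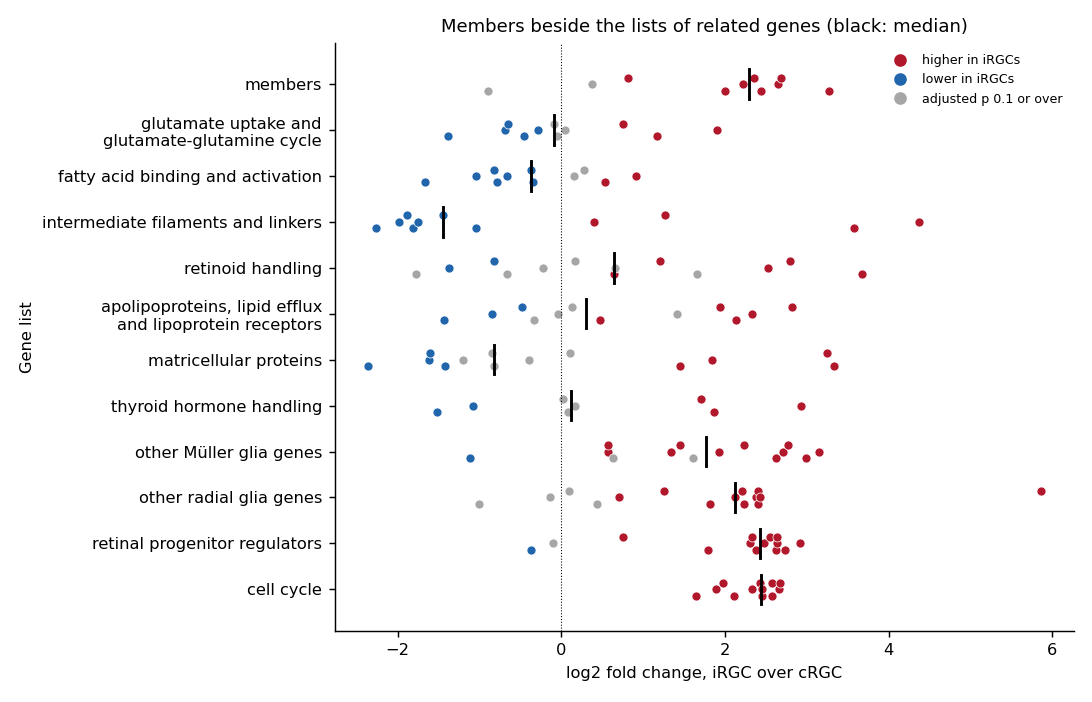
Log2 fold change, iRGC over cRGC, of the 10 members and of every tested gene of 11 related lists (red, called higher in iRGCs; blue, called lower; grey, adjusted p of 0.1 or over; black lines, medians). The members, with a median of 2.29, lie beside the other radial glia genes at 2.13 and the progenitor regulators at 2.43, and the lists of biochemical partners are spread over both sides of 0.

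Markers of other cells that a sorted retina could hold moved with the populations as well. Of the 12 RGC markers, 11 were called lower in iRGCs and none higher, with a median log2 fold change of -1.95; Gap43, a growth cone protein with the highest mean over the 6 libraries, although not among iRGCs alone, had 595 ± 268 and 2253 ± 149 CPM. The 10 genes of neurogenic precursors, led by Hes6 with 293 ± 16.2 and 105 ± 24.1 CPM, were all higher, with summed levels of 1677, 1710 and 1613 CPM in iRGCs and 332, 592 and 485 CPM in cRGCs.

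Endothelial markers summed to 431, 606 and 433 CPM in iRGCs and 87.6, 108 and 71.7 CPM in cRGCs. The most abundant was Kdr, a VEGF receptor that retinal progenitors also express, with 368 ± 48.9 and 84.8 ± 17.7 CPM. Of the 10 markers, Cdh5, Tie1 and Erg were at 0 in every cRGC library, whereas the others had reads in at least 1 of them, and Kdr, Cldn5, Esam and Egfl7 in all 3. Cdh5 had 15.2, 81.3 and 0.158 CPM in the iRGC replicates. Pecam1 had 9.65, 53.0 and 0.284 CPM there, and lost its call without replicate 2 (adjusted p = 0.127). Mural cell markers summed to 124, 257 and 106 CPM in iRGCs and 18.3, 30.1 and 20.7 CPM in cRGCs, with no marker at 0 in all 6 libraries and Notch3 the most abundant (105 ± 18.3 and 20.8 ± 5.18 CPM). Rgs5 had 3.76, 93.8 and 2.24 CPM in the iRGC replicates. Erythroid markers, led by Hbb-bs with 7.94, 50.04 and 7.88 CPM, summed to 12.2, 92.7 and 15.3 CPM in iRGCs and 0, 5.18 and 0.290 CPM in cRGCs, with Hbb-bh1 at 0 in every library. These 3 lists were highest in iRGC replicate 2, the iRGC library with the highest Sparc, Apoe and Vim. Called higher were all 5 tested of 10 endothelial genes, 4 of 5 tested mural genes and all 4 tested of 9 erythroid genes, and without that library 2, 3 and 1. The tested erythroid genes, most of the mural ones and Pecam1 passed the filter on low counts only with the iRGC libraries in which they were high, so these counts are set in large part by the filter and are not read as a result. The part of vessel cells in the levels of the members was not tested.

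The remaining lists were at low levels. Microglia and macrophage markers summed to 44.9, 47.9 and 43.4 CPM in iRGCs and 15.9, 22.2 and 15.8 CPM in cRGCs, with 5 of 9 tested called higher, although most of the tested genes passed the filter through the iRGC libraries. Without iRGC replicate 2 or 3, only 3 of this list were called. Fibroblast markers summed to 17.7, 37.8 and 9.68 CPM in iRGCs and 8.73 to 10.2 CPM in cRGCs. Of the 8, 3 were tested and 1, Col1a2, was called higher (9.94 ± 6.32 and 2.096 ± 1.16 CPM), with Lum at 0 in every library. Of the 5 tested pigment epithelium markers none was called, Slc45a2 was at 0 in every library, and the summed levels were 2.96, 9.71 and 5.27 CPM in iRGCs and 3.96 to 6.94 CPM in cRGCs. Of 6 markers of optic stalk astrocytes, 4 were tested, 1 was called higher and 1, Aldh1l1, which had the highest mean of the list in cRGCs but not in iRGCs, lower (3.35 ± 0.971 and 7.17 ± 0.929 CPM), a call lost without iRGC replicate 2 or cRGC replicate 1 or 3. Lens markers summed to 4.02, 13.3 and 3.22 CPM in iRGCs and 1.08 to 2.55 CPM in cRGCs, with neither of the tested genes called, Bfsp1 the most abundant and Mip at 0 in every library. The part of these cells in the levels of the members was not tested.

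**Figure D5:**
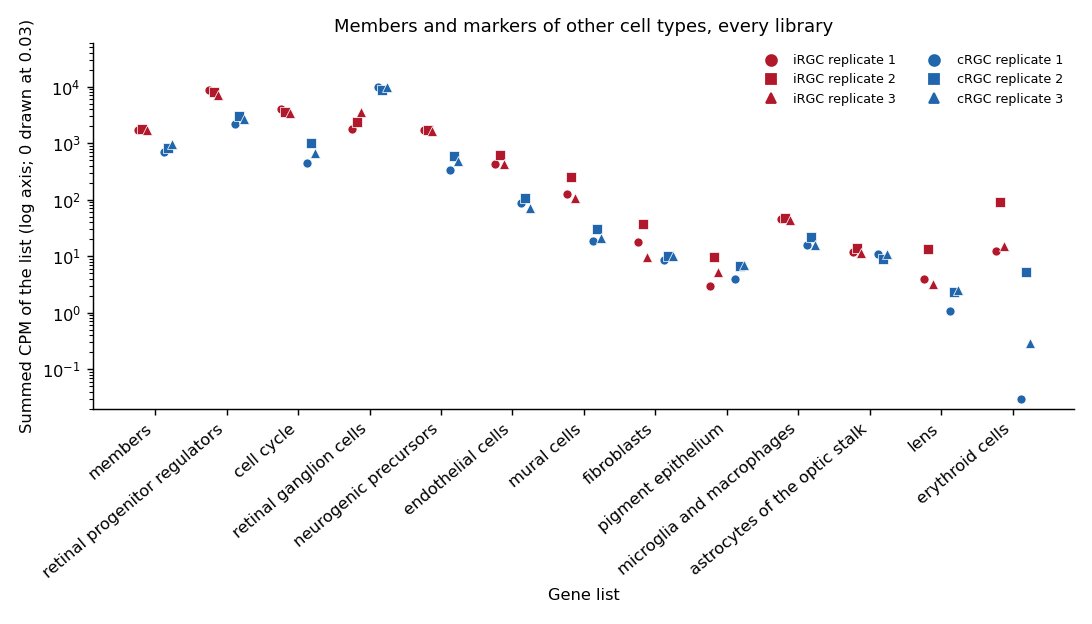
Summed level, in CPM on a log axis, of the 10 members and of the marker lists in every library (red, iRGCs; blue, cRGCs; symbols, replicates; a sum of 0 drawn at 0.03). The members sum to 1709 to 1806 CPM in iRGCs and 688 to 978 CPM in cRGCs, RGC markers show the opposite order, and vessel and erythroid lists are highest in iRGC replicate 2.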

How the data were processed

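RNA was measured in 6 libraries of sorted GFP-positive retinal cells, with 3 per population. Another 13 samples, of ATAC-seq, were not analysed here. The authors aligned reads to mm10 with HISAT2 2.1.0, counted them on Ensembl genes of GRCm38 with HTSeq 0.11.1 and deposited raw counts per gene, 1 table per library. Gene symbols, coordinates and lengths were read from the GENCODE annotation of GRCm38, which held 46574 of the 47069 identifiers. HTSeq's summary rows were left out of library sizes and tests. Reads on no gene were 12.3% to 23.2% of uniquely aligned reads and ambiguous ones 0.857% to 0.989%.

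Tests were run on counts with edgeR 4.0.16 in R 4.3.3 (filterByExpr, TMM, quasi-likelihood test, no block). The TMM factors ranged from 1.03 to 1.10 for iRGC libraries and from 0.921 to 0.952 for cRGC libraries. SEs were the absolute log2 fold change over the square root of F. CPM over exon length gave levels per kilobase. Ratios were tested with exact permutation in scipy 1.17.1. The fits were tested on simulated data. No pair of libraries of one population agreed within sampling noise.

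The members and the 21 gene lists were chosen with earlier results of these data known. Named were all members, of each list of related genes the 3 called higher and 3 called lower with the highest mean CPM, of each cell type list the most abundant gene and those at 0, and the 5 genes of at least 10 CPM most like the members; Slc6a4, Slc38a2, Pea15a, Gja1, Krt8, Cldn5, Esam, Egfl7, Fabp5, Gfap, Aqp4, Pou4f2, Cdh5, Tie1, Erg, Pecam1, Rgs5 and the chromosomal neighbours were named after their values were seen. A few genes that this rule names are not reported here. Alternatives were DESeq2 size factors, upper quartile factors, library totals alone, no filter or at least 10 counts in every library, DESeq2 1.42.0, limma 3.58.1 voom, each library left out, the replicate number as a block, protein-coding genes alone, an adjusted p under 0.05, a pseudocount of 0.5 in ratios and the longest transcript as length.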

Additional observations from a re-analysis of the deposited data

How the results depend on the processing

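Under the 16 alternatives run for it, the count of members called higher stayed at 8 or, with library totals alone and without cRGC replicate 3, reached 9, and the 8 called members kept their call in each of 15 fits, with adjusted p-values up to 0.0792 for Rlbp1. The median log2 fold change of the members lay between 2.01 and 2.49. Clu was called lower, as the 1 member so called, with no filter (adjusted p = 0.0715), DESeq2 (0.0651), limma voom (0.0392) and without iRGC replicate 3, so that count ran from 0 to 1 over the left-out libraries. Vim was called with library totals alone (adjusted p = 0.0397), a scaling that moved the median of all genes to 0.20, and Pea15a then had a positive value of 0.062. That scaling also gave 4 fatty acid genes called higher and 0 progenitor regulators called lower. Filament genes called higher numbered 4, but 2 with at least 10 counts in every library or with limma voom, and 1 to 3 with a library left out. Genes of the glutamate cycle called lower numbered 5, but 3 at an adjusted p under 0.05 and 3 to 5 with a library left out, and radial glia genes called lower 0 to 1. Counts of cell type markers called higher moved most. They were 2 to 9 for endothelial genes with a library left out, 10 with no filter, 3 with at least 10 counts in every library, 9 with DESeq2, 2 with limma voom and 3 with the replicate block. For mural genes they were 3 to 6 with a library left out, 8 with no filter and 2 with at least 10 counts, for fibroblast genes 1 to 2, 3 with no filter and 2 with DESeq2, and for erythroid genes 1 to 5, 0 with at least 10 counts, 2 with DESeq2 and 1 with limma voom. Microglia genes called higher were 3 to 7 with a library left out, 1 with at least 10 counts and 3 at an adjusted p under 0.05, optic stalk genes 1 to 2, and 2 with library totals, DESeq2 or protein-coding genes alone, lens genes 0 to 1, 2 with no filter and 1 with DESeq2 or limma voom, and pigment epithelium genes 1 with library totals, DESeq2, limma voom or protein-coding genes alone. Called lower were 0 to 1 fibroblast, optic stalk and pigment epithelium gene with a library left out, the last also 1 with limma voom or at least 10 counts. The difference in the log2 ratio of Slc1a3 to Fabp7 ran from -0.25 to 0.52 with a library left out, being -0.14 without iRGC replicate 2, -0.25 without cRGC replicate 2 and -0.083 without cRGC replicate 3. Slc6a4 had a log2 fold change of -0.86 with limma voom, -0.54 with the replicate block and -1.11 to 0.98 with a library left out, and Slc38a2 one of -0.052 to 0.13 with a library left out. The cause of these shifts was not tested. Over all tested genes, same-numbered libraries did not deviate together (correlations -0.012, -0.024 and -0.055). A pairing that touches only some genes was not tested. With the replicate block, 3316 genes were called higher and 3435 lower, against 3707 and 3688, members called higher remained at 8 and filament genes called higher fell to 1. With 14 to 31 counts of Rlbp1 per cRGC library and 3 libraries a group, small differences in low-count genes may have been missed. The smallest detectable difference was not measured.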

Other observations

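Over the 6 libraries, the 5 genes with at least 10 CPM whose log2 level was most like the mean standardised level of the 10 members were Stag2, Csrp2, Mgarp, Ubac2 and Atf1, with Pearson's r of 0.998, 0.998, 0.998, 0.998 and 0.997. These are descriptions over 6 libraries that fall into both populations, so any gene that separates the populations evenly has a high value. Stag2, a cohesin subunit, had 223, 236 and 257 CPM across the iRGC replicates and 91.8, 124 and 124 CPM in the cRGC replicates. Csrp2, a LIM domain protein, had 163, 172 and 191 CPM and 73.2, 95.6 and 90.8 CPM. Among the members themselves, the r of each with the mean of the others was 0.91 to 0.97 for the 8 called genes, 0.57 for Vim and -0.65 for Clu.

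The protein-coding neighbours of the members on the chromosome were compared as well. Of 20 neighbours, 12 were tested, 6 were called higher in iRGCs and none lower, where 23.3% of all tested genes were called higher and 23.1% lower. Next to Rlbp1, Fanci, a DNA repair gene 4880 bases away, was called higher (log2 fold change 2.38, SE 0.60, adjusted p = 0.0127, and 3.21 on the log2 scale without cRGC replicate 2), and Abhd2, 9361 bases away on the other side, was not (-0.23, SE 0.11, adjusted p = 0.126). Crabp2, 17701 bases from Nes, was called higher (log2 fold change 1.21, SE 0.22, adjusted p = 0.00254), and Bcan, 7079 bases away, was not (-1.004, SE 1.02, adjusted p = 0.484). Both neighbours of Clu, which was not called, were higher, Scara3 at 0.98 (SE 0.18, adjusted p = 0.00249) and Gulo at 2.19 (SE 0.51, adjusted p = 0.00857). Tomm40, 2124 bases from Apoe, was not called (log2 fold change 0.076, SE 0.11, adjusted p = 0.645). Fabp7 lay between Pkib (log2 fold change 1.56, SE 0.28, adjusted p = 0.00207) and Smpdl3a (0.77, SE 0.33, adjusted p = 0.0926), both called higher, although Smpdl3a lost the call in 8 of 15 alternatives.

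Gja1, the gap junction gene connexin 43, had the largest log2 fold change of the tested radial glia genes, 5.86 (SE 1.05, adjusted p = 0.00223), and was noticed after its values were seen. It had 23.3, 99.2 and 4.98 CPM across the iRGC replicates and 1.08, 0.449 and 0.678 CPM in the cRGC replicates. Its order over the iRGC replicates was that of the endothelial markers Cdh5 (15.2, 81.3 and 0.158 CPM) and Pecam1 (9.65, 53.0 and 0.284 CPM), and their part in its value was not tested. Without iRGC replicate 2 the log2 fold change was 4.26, and limma voom did not call it (adjusted p = 0.25).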
